A study of Homo sapiens with 18 samples.

Results

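Ribosome footprints of MDA-MB-231 cells carrying the hairpin SH3 against fibrillarin were compared with those of cells carrying the scramble control SC, in the 3 SH3 and the 3 SC footprint libraries of a series of 18 libraries. MDA-MB-231 is an established human line of triple-negative breast carcinoma. It was grown in DMEM with serum and insulin, and hairpin or scramble sequence was delivered in a pLKO.1 lentivirus, and control and knockdown cells alike were kept for 96 h in 1 µg/ml puromycin and given fresh medium until the next day. Cycloheximide at 100 µg/ml for 5 min then held ribosomes in place on the mRNA, in both groups, before the lysates were digested with RNase I and monosomes were collected from sucrose gradients. The label SC is read as scramble, and the label SH3 is kept as it stands because the protocol text names its hairpins knockdown 1 and knockdown 2. The other 12 libraries are the footprints of the hairpin SH2 and the cytoplasmic RNA (IN) of all 3 treatments, which are used below only for comparison. All groups come from a single line, no isolation of clones is described, and nothing in the labels says whether replicates were separate cultures, so p-values measure the spread between these libraries.

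Fibrillarin (FBL) is a nucleolar enzyme. Within box C/D particles it uses small guide RNAs to place methyl groups on the riboses of ribosomal RNA, and some of these particles take part in early cleavage of the precursor. A ribosome footprint is the stretch of mRNA that a ribosome shields from nuclease. The footprint count of a gene therefore follows both how much of its mRNA is present and how densely ribosomes occupy it. In a pool of cells, fewer cells of a kind and less RNA per cell cannot be told apart.

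FBL itself was measured first, since it checks the labels. Its footprints stood at 279.7, 269 and 296 CPM in SC and 4.10, 5.48 and 8.06 CPM in SH3, where CPM is the read count scaled to a common library size with TMM factors. The SH3 values rest on 7, 16 and 23 reads, against 1723, 638 and 1669 in SC. This is a log2 change of -5.52 ± 0.49 (SE, edgeR adjusted p = 1.55e-06), which leaves 0.0218 times the SC level, and the RNA libraries moved the same way (log2 change -6.80).

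Footprint totals were 6098648, 2486598 and 5787585 counts in SC and 1662705, 2862198 and 2739747 in SH3, so the SH3 libraries were the shallower group on average (2421550 ± 660025 against 4790944 ± 2001673 counts, SD, n = 3 each). The first principal component of log2 CPM held 63.8% of the variance and separated the groups, and the second, with 15.1%, spread the SC libraries. No 2 replicates agreed within counting noise (chi-square per degree of freedom 3.38 to 17). All 12 genes listed as typical of this line were present in every library, at a summed 10343 to 14091 CPM in SC and 11474 to 12197 CPM in SH3. Luminal breast genes, listed because the line is expected to hold little of most of them, included the hormone receptor genes ESR1 and PGR at 0 counts in all 6 libraries and the keratin genes KRT8 and KRT19 at similar levels in both groups; the 9 summed to 1677 to 1964 CPM in SC and 1451 to 2009 CPM in SH3. KRT8 and KRT19 made up most of this sum, with means of 896 and 920 CPM in SC and 821 and 834 CPM in SH3. Summed markers of other cell types were low in both groups: 5.52 to 11.4 CPM in SC and 5.82 to 7.71 CPM in SH3 for 5 leukocyte genes, 8.17 to 16.4 and 13.7 to 18.7 CPM for 4 endothelial genes, and 22.7 to 45.5 and 38.7 to 55.7 CPM for 6 fibroblast genes, of which COL3A1, PDGFRA and DCN were at 0 throughout. COL1A1, with 81 to 154 reads in each library, made up most of the fibroblast sum. KDR, with 25 to 41 reads, made up most of the endothelial sum, and CD14, with 11 to 32, most of the leukocyte sum.

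Of 17017 genes in the table, 10345 had enough footprint counts to be tested, and 3719 of these (35.9%) were called, that is, had an adjusted p under 0.05 in edgeR's quasi-likelihood test. Footprints of 1751 genes (16.9%) rose in SH3 and those of 1968 (19.0%) fell. Which direction held more calls turned with the scaling, since library totals alone gave 2078 higher and 1698 lower and upper-quartile factors 1888 and 1889. The change was at least 2-fold in 536 of the risen and 820 of the fallen genes, at least 4-fold in 52 and 90, and at least 8-fold in 7 and 14. All 3 SH3 values lay outside the range of the SC values in 4807 of the tested genes (46.5%), of which 3521 were called. The median log2 change over all tested genes was -0.01. When genes were cut by footprint level into 4 groups of equal size, called genes made up 24.9% of the lowest, with a median SE of 0.33, and 44.2% of the highest, with a median SE of 0.15. Of the runs that left out 1 library, that without SH3 replicate 2 gave the fewest calls, 2645.

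**Figure D1:**
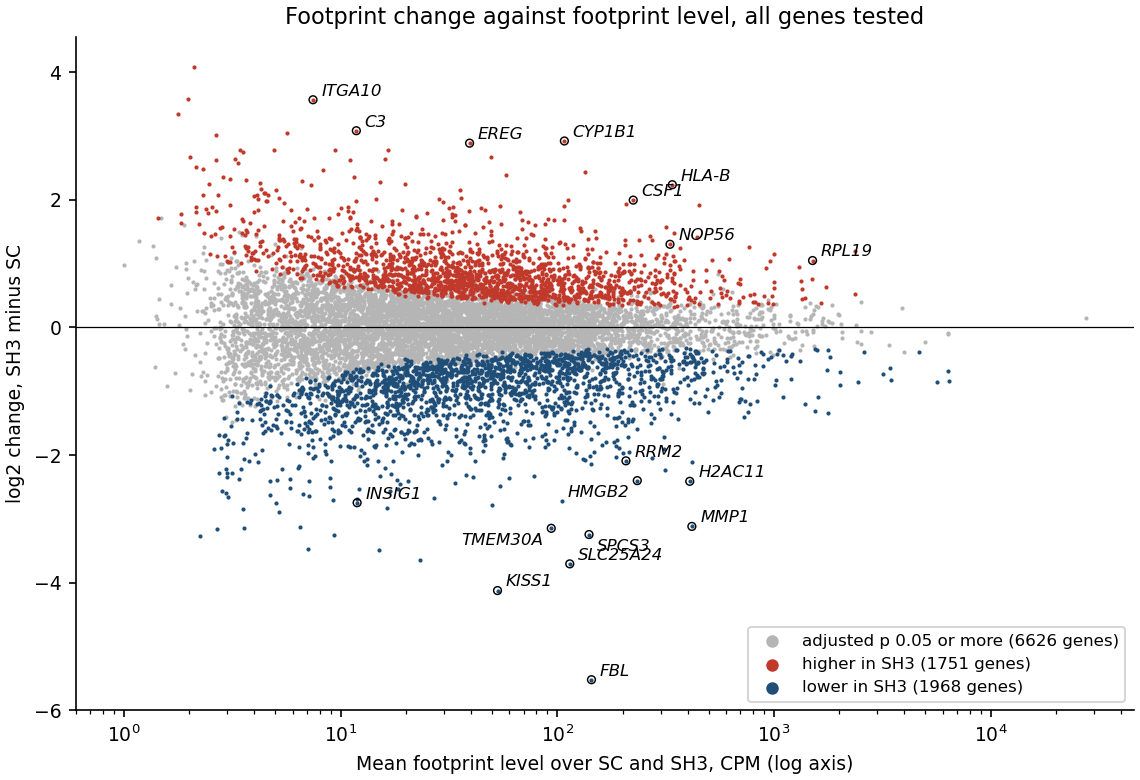
Each point is 1 of the 10345 tested genes, with its mean footprint level over SC and SH3 in CPM (log axis) and its log2 change, SH3 minus SC. The 1751 risen and 1968 fallen genes lie on both sides of 0 at all levels, with FBL lowest at -5.52 and the scatter of uncalled genes widest at low levels.

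Among called genes with at least 10 CPM in the higher group and no overlap between groups, the 10 steepest rises spanned log2 changes of 2.62 to 3.57. ITGA10, a collagen-binding integrin chain, had 1.14, 1.26 and 1.07 CPM in SC and 12.9, 16.1 and 12.3 CPM in SH3, which is a log2 change of 3.57 ± 0.32 (SE, edgeR adjusted p = 1.55e-06). The gene for complement component C3 had 2.60, 3.37 and 1.6 CPM in SC and 31.6, 9.24 and 22.4 CPM in SH3, a log2 change of 3.08 ± 0.40 (SE, edgeR adjusted p = 4.24e-05). CYP1B1, a cytochrome P450 that aryl hydrocarbon receptor ligands induce, had 15.9, 40.4 and 22.7 CPM in SC and 177, 207 and 183 CPM in SH3, a log2 change of 2.92 ± 0.28 (SE, edgeR adjusted p = 2.89e-06). That the lowest SH3 library of each stood above the highest SC library was required by the rule that picked them. EREG, which encodes the EGFR ligand epiregulin, went from 10.7, 7.58 and 9.23 CPM to 53.9, 68.5 and 86.2 CPM, a log2 change of 2.89 ± 0.29 (SE, edgeR adjusted p = 3.71e-06). BMF, a proapoptotic protein with a single BCL2 homology domain, rose by a log2 change of 3.05 from counts of 3, 2 and 12 in SC, too few to fix its size closely. The others were PPL (periplakin, 2.79), CYP2S1 (a P450, 2.78), BIN1 (a membrane-bending protein, 2.67), TULP3 (a ciliary trafficking protein, 2.64) and PIEZO2 (a mechanosensitive channel, 2.62).

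The deepest falls after FBL spanned -3.13 to -4.12. KISS1, the precursor of the peptide kisspeptin, had 60.9, 155 and 83.8 CPM in SC and 9.37, 3.42 and 5.26 CPM in SH3, a log2 change of -4.12 ± 0.40 (SE, edgeR adjusted p = 3.20e-06). SLC25A24, a mitochondrial carrier of adenine nucleotides and phosphate, had 214, 214 and 208 CPM in SC and 17, 18.5 and 13.3 CPM in SH3, a log2 change of -3.71 ± 0.17 (SE, edgeR adjusted p = 1.54e-09). TMEM30A, the partner subunit of phospholipid flippases, had 158, 177 and 170.4 CPM in SC and 20.5, 19.9 and 16.8 CPM in SH3, a log2 change of -3.15 ± 0.16 (SE, edgeR adjusted p = 7.81e-09). In SLC25A24 and TMEM30A the libraries of each group lay close together and the groups were far apart. SPCS3, a subunit of the signal peptidase, had 215, 304 and 240.0 CPM in SC and 31.6, 27.7 and 21.4 CPM in SH3, a log2 change of -3.25 ± 0.19 (SE, edgeR adjusted p = 4.65e-08). The cationic amino acid transporter SLC7A2 changed by -3.64 and cyclin G2 (CCNG2) by -3.49. Counts in SH3 were small for the proton pump subunit ATP6V0A4 (3, 4 and 1 reads, log2 change -3.47), for GPR180 (1, 4 and 8, -3.25) and for OGFRL1 (2, 2 and 6, -3.13).

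**Figure D2:**
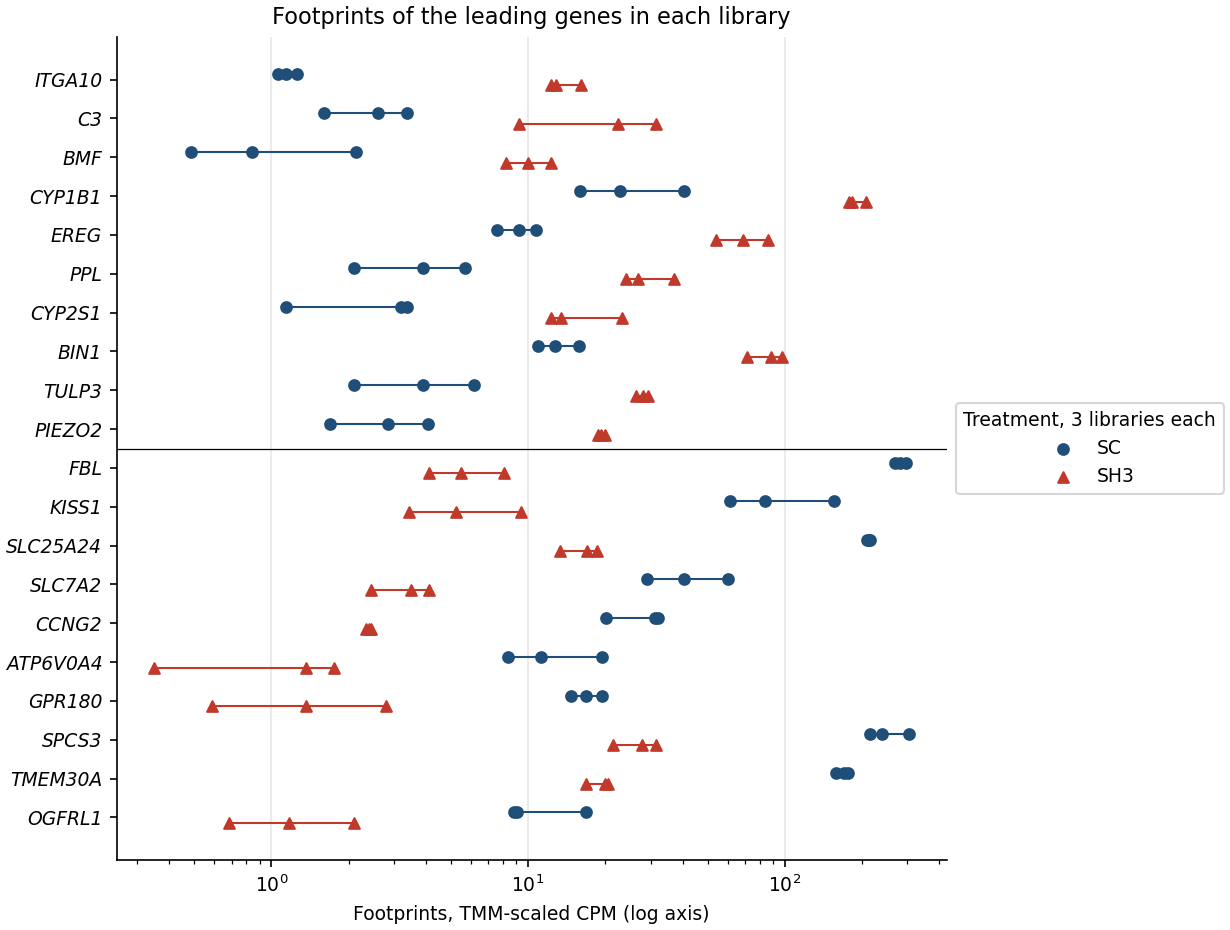
Footprint CPM (log axis) of the 10 steepest rises and the 10 deepest falls by rule, with 1 point for each of the 3 SC and 3 SH3 libraries and a line over their range. The rule admitted only genes whose ranges do not overlap. For SLC25A24 the SC libraries sit at 208 to 214 CPM and the SH3 libraries at 13.3 to 18.5 CPM.

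Genes with a mean of at least 200 CPM, where counting noise is small, moved less steeply. HLA-B, an antigen-presenting class I chain, had 120.5, 112 and 123 CPM in SC and 580.1, 507 and 593 CPM in SH3, a log2 change of 2.24 ± 0.15 (SE, edgeR adjusted p = 1.76e-07). The cytokine gene CSF1 rose by 2.00, the collagen chain COL6A1 by 1.93 and the kinase gene PLK2 by 1.57 on the log2 scale. Among the falls, MMP1, an interstitial collagenase, had 240.3, 1603 and 403 CPM in SC and 118, 73.6 and 68.4 CPM in SH3, a log2 change of -3.12 ± 0.52 (SE, edgeR adjusted p = 2.95e-04). The SC libraries of MMP1 spread widely, and without SC replicate 2 its log2 change was -1.91. HMGB2, a chromatin protein linked to proliferation, had 455, 261 and 463 CPM in SC and 73.2, 62.0 and 88.7 CPM in SH3, a log2 change of -2.40 ± 0.21 (SE, edgeR adjusted p = 1.55e-06), and the other abundant falls were the histone genes H2AC11, H3C3 and H4C1.

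Genes of cell division fell together. Of 54 tested genes of mitosis and the spindle, 47 (87.0%) fell, 0 rose, and all 54 had a change below 0, with a median of -1.22. Their summed footprints were 9955, 7639.5 and 9533 CPM in SC and 4776, 3450.0 and 4130.0 CPM in SH3, so no SH3 library reached the lowest SC library. KIF20A, a kinesin of cytokinesis, had 253, 149.6 and 274 CPM in SC and 62.1, 43.8 and 63.1 CPM in SH3, a log2 change of -2.02 ± 0.23 (SE, edgeR adjusted p = 1.45e-05). UBE2C, the ubiquitin-conjugating enzyme of the anaphase-promoting complex, had 345, 267 and 346 CPM in SC and 92.5, 55.1 and 98.5 CPM in SH3, a log2 change of -1.97 ± 0.19 (SE, edgeR adjusted p = 3.12e-06). CDK1, the mitotic kinase, had 308, 322 and 345 CPM in SC and 155, 79.1 and 121 CPM in SH3, a log2 change of -1.47 ± 0.19 (SE, edgeR adjusted p = 4.48e-05). Its cyclin CCNB1 changed by -1.28, the kinases PLK1 and AURKA by -1.63 and -1.62, and the DNA topoisomerase TOP2A by -1.19. The kinetochore subunit SPC25 (-1.90), DLGAP5 (-1.71) and CDCA3 (-1.96) were named with these after their values were seen. In KIF20A, UBE2C and CDK1 every SH3 library stood below every SC library. Leaving out 1 library at a time or changing another setting gave 40 to 51 fallen genes. In SH2 against the same SC libraries 50 of the list fell, with a median of -1.16. RNA of all 54 was lower in SH3 with a call, beside 25.2% of all genes tested in RNA. The edgeR test of footprint change against RNA change called 0 of the 54. That test called only 0.686% of all genes, so a count of 0 says little about this list.

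Replication-dependent histones, whose mRNAs end in a stem-loop instead of a poly(A) tail and are made in S phase, had 33 of 36 tested genes lower (91.7%) and 0 higher, with a median of -1.33. Summed over the list, footprints were 16659, 8937 and 14039 CPM in SC and 5150.4, 5433 and 6150.0 CPM in SH3, with the groups apart and SC replicate 2 lowest of its group. H2AC11 had 989.7, 384 and 689 CPM in SC and 123, 112 and 154 CPM in SH3, a log2 change of -2.41 ± 0.31 (SE, edgeR adjusted p = 3.43e-05). H3C3 changed by -2.23, H4C1 by -2.11, H2AC4 by -2.04, H3C13 by -2.09 and the linker histone H1-4 by -1.15. In SH2 against the same SC libraries 32 of the 36 fell, with a median of -1.26. The copies of a histone class are nearly identical, and how reads that match several copies were counted is not given in the sources used here, so the split among copies is uncertain.

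DNA replication genes fell in 27 of 48 tested (56.2%) and rose in 0, with a median of -0.59. RRM2, the inducible subunit of ribonucleotide reductase, had 322, 365 and 319 CPM in SC and 91.3, 64.4 and 81.7 CPM in SH3, a log2 change of -2.09 ± 0.18 (SE, edgeR adjusted p = 1.38e-06). The thymidylate synthase gene TYMS changed by -1.89 and the sliding clamp PCNA by -0.94. The replication list had 10 genes above SH2 and 2 below it in the direct contrast, beside 11.6% above and 12.1% below among all tested genes. Its median in SH2 against the same SC libraries was -0.98. The count of 10 was 5 without SH2 replicate 2 and 6 without SH3 replicate 2 or SH3 replicate 3. Without SC replicate 1, 2 replication genes passed the test as higher in SH3. Homologous recombination, Fanconi and checkpoint genes had 9 of 37 lower (24.3%, beside 19.0% of all tested genes), led by FANCB (-1.5) and the translocase gene RAD54B (-1.48). The list had 3 higher (RAD50, FANCC and FANCE, or 1 without SH3 replicate 2 or SH3 replicate 3). Of these, RAD50 lost its call without SH3 replicate 2 (log2 change 0.68, edgeR adjusted p = 0.327) and without SC replicate 3 (1.04, adjusted p = 0.133 from edgeR).

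The comparison used no promoter sequence. Promoter sequences from RefSeq (GRCh38.p14, 250 bases before to 50 bases after the annotated start) were matched by symbol for 8516 of the 10345 tested genes, and 4 motifs were searched on both strands. They are the cell cycle element TTTGAA, the promoter element CCAAT, the sterol element TCACNCCAC and the hypoxia core ACGTG, and none contains another. TTTGAA, the form of the cell cycle homology region found in many mitotic promoters, was present in 28 of the 39 fallen mitosis genes with a promoter (71.8%) and in 35 of the 46 tested ones, against 9.46% of all tested genes and 15.4% of all 27305 promoters of that length. It was present in 9 of 28 fallen histone genes and in 2 of 24 fallen DNA replication genes (8.33%). CCAAT was present in 26 of 28 fallen histone genes (92.9%) and in 29 of 39 fallen mitosis genes (74.4%), in 11 of 14 fallen sterol genes (78.6%) and in 14 of 24 fallen replication genes (58.3%), against 37.4% of tested genes and 35.7% of all promoters. Among all tested members, fallen or not, CCAAT was present in 28 of 31 histone genes (90.3%) and 34 of 46 mitosis genes (73.9%). It was present in 18 of 25 sterol genes (72.0%) and 23 of 41 replication genes (56.1%). Among all called genes with a promoter TTTGAA occurred in 13.5% of the fallen and 8.21% of the risen promoters. CCAAT occurred in 39.6% of the fallen and 38.0% of the risen promoters. The hypoxia core ACGTG was present in 8 of 16 fallen glycolysis and hypoxia genes (50.0%) and in 11 of the 30 tested ones (36.7%), against 27.9% of tested genes and 21.6% of all promoters. Among all called genes ACGTG occurred in 25.6% of the fallen and 31.5% of the risen promoters. The sterol element TCACNCCAC was present in 1 of 14 fallen sterol genes, against 1.14% and 1.15%. A match is a description of the letters, not a bound site. Shown here are the windows of the 4 steepest falls of the mitosis list that hold TTTGAA within 120 bases before to 20 bases after the start, with the motif on either strand in capitals.
CDCA3, chr12:6851267-6851406 (- strand): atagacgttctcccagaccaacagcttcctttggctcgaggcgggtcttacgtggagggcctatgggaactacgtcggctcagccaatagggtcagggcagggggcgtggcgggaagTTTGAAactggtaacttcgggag
SPC25, chr2:168890411-168890550 (- strand): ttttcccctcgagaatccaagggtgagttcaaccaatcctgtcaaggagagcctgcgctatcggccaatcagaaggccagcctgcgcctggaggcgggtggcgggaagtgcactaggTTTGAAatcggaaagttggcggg
DLGAP5, chr14:55191566-55191705 (- strand): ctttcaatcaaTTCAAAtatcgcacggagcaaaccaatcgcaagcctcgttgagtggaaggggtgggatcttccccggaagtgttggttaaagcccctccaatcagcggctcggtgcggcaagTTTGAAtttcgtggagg
PLK1, chr16:23678769-23678908 (+ strand): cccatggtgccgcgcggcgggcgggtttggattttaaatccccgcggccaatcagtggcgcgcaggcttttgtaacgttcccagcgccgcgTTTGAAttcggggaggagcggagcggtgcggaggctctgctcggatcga
Each of the 4 windows also holds CCAAT, left in lower case, ahead of the TTTGAA nearest the start. The same windows of the 3 steepest histone falls that hold CCAAT are given next, with CCAAT or its complement in capitals.
H2AC11, chr6:27132923-27133062 (+ strand): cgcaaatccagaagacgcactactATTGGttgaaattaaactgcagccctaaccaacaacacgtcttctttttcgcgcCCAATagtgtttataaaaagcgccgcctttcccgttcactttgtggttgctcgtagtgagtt
H3C3, chr6:26045264-26045403 (+ strand): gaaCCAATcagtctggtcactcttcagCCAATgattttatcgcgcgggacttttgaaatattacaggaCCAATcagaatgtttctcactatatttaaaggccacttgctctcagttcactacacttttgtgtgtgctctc
H3C13, chr1:149813674-149813813 (- strand): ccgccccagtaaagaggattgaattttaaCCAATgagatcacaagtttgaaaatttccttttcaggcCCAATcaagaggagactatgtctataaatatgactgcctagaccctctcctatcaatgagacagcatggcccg
Each of the 3 histone windows holds more than 1 match of CCAAT, and those of H3C3 and H3C13 also hold TTTGAA, in lower case.

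Among regulators of entry into S phase, 4 of 22 tested genes were higher (18.2%, near the 16.9% of all tested genes). Another 8 were lower (36.4%, beside 19.0% of all tested genes). CDK6, a kinase of G1, had 33.0, 30.8 and 26.3 CPM in SC and 111, 102 and 101 CPM in SH3, a log2 change of 1.80 ± 0.14 (SE, edgeR adjusted p = 6.57e-07). CDKN1B, the inhibitor p27, had 59.3, 50.1 and 43.3 CPM in SC and 165, 170.2 and 158 CPM in SH3, a log2 change of 1.69 ± 0.15 (SE, edgeR adjusted p = 1.38e-06). In CDK6 and CDKN1B the SH3 libraries lay close together, far above SC. The other risen members were the inhibitor CDKN1C and MYC (0.72). Cyclin E2 (CCNE2) had 38.3, 26.1 and 27.0 CPM in SC and 9.37, 8.90 and 5.96 CPM in SH3, a log2 change of -1.95 ± 0.25 (SE, edgeR adjusted p = 3.60e-05), and the inhibitor CDKN1A fell by a log2 change of -0.63. CDKN1A and cyclin D1 (CCND1) differed between the hairpins. CDKN1A stood at 219, 195 and 175 CPM in SH2, and SH3 minus SH2 was -1.71 ± 0.16 (SE, edgeR adjusted p = 4.94e-06). For CCND1, the log2 change was 0.13 in SH3 and -1.45 in SH2, with a direct difference of 1.57 ± 0.19 (SE, edgeR adjusted p = 3.28e-05).

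Genes of sterol and fatty acid synthesis, which the factors SREBF1 and SREBF2 induce when membrane sterol is low, fell in 20 of 32 tested (62.5%) and rose in 0, with a median of -0.68. Summed footprints were 3951, 5249.6 and 4698 CPM in SC and 2804, 2837 and 3059 CPM in SH3, with every SH3 library below every SC library. INSIG1, which retains the SREBF factors in the endoplasmic reticulum, had 17.2, 28.6 and 16.5 CPM in SC and 3.51, 1.71 and 3.86 CPM in SH3, a log2 change of -2.75 ± 0.34 (SE, edgeR adjusted p = 2.67e-05). The fatty acid elongase ELOVL6 had 58.0, 73.7 and 69.9 CPM in SC and 18.7, 15.1 and 14 CPM in SH3, a log2 change of -2.09 ± 0.18 (SE, edgeR adjusted p = 1.38e-06). SCD, the stearoyl-CoA desaturase, had 426, 569 and 471 CPM in SC and 129, 122 and 139 CPM in SH3, a log2 change of -1.91 ± 0.16 (SE, edgeR adjusted p = 1.10e-06). HMGCS1 of the mevalonate pathway changed by -1.37 and SREBF2 by -1.05. In both genes all SH3 libraries lay below all SC libraries. The count of fallen genes was 17 to 21 over the alternatives run.

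Sterol genes also differed between the hairpins. SH2 and SH3 share their SC controls, so a difference between them is tested only by contrasting SH3 with SH2 directly. Against SC, 44.2% of tested genes were called in SH2, 21% higher and 23.2% lower. SH2 summed to 3966, 4266 and 4369 CPM, and its median change was -0.33, with 6 sterol genes higher and 12 lower. In the direct contrast 13 of the 32 genes (40.6%) were lower in SH3 than in SH2 and 0 were higher, beside 12.1% lower and 11.6% higher among all tested genes. INSIG1 stood at 21.8, 28.4 and 23.6 CPM in SH2, a difference of -3.06 ± 0.34 (SE, edgeR adjusted p = 1.52e-05). ELOVL6 stood at 68.9, 72.5 and 82.6 CPM in SH2, a difference of -2.25 ± 0.18 (SE, edgeR adjusted p = 1.22e-06). In both genes the SH2 libraries overlapped the SC range and the SH3 libraries lay far below it. The count of 13 was 9 without SH3 replicate 2 and 16 with replicate numbers as a block.

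Glycolysis and hypoxia-response genes, many of them targets of the factor HIF1A, fell in 17 of 34 tested (50.0%) and rose in 1, with a median of -0.53. Summed footprints were 25011, 26347 and 29062 CPM in SC and 18414, 20289 and 21784 CPM in SH3. ALDOC, an aldolase, had 11.4, 11 and 11.9 CPM in SC and 2.93, 2.40 and 4.56 CPM in SH3, a log2 change of -1.77 ± 0.31 (SE, edgeR adjusted p = 4.83e-04). LDHA, lactate dehydrogenase A, had 3729, 3939 and 4281 CPM in SC and 2383, 2429 and 2394 CPM in SH3, a log2 change of -0.73 ± 0.12 (SE, edgeR adjusted p = 2.30e-04). PDK1, which restrains pyruvate entry into mitochondria, changed by -1.73, TPI1 by -0.81 and PGK1 by -0.69. In LDHA and ALDOC the groups did not overlap. The one gene that rose, the histone demethylase gene KDM3A, had 48.9, 43.0 and 41.5 CPM in SC and 189, 178 and 169 CPM in SH3, a log2 change of 2.00 ± 0.15 (SE, edgeR adjusted p = 5.28e-07). Without SC replicate 1, 2 genes rose. Here too SH3 was below SH2, in 14 of 34 genes (41.2%), and above it in 1, ENO2. SH2 had a median of 0.02 against the same SC libraries. The glucose transporter SLC2A1 had a log2 change of -0.49 in SH3, which did not pass (edgeR adjusted p = 0.0654; -0.68, adjusted p = 0.00353, without SC replicate 1), and 0.99 in SH2, with a direct difference of -1.48 ± 0.20 (SE, edgeR adjusted p = 1.00e-04). Without SH3 replicate 2 the count of 14 was 9.

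**Figure D3:**
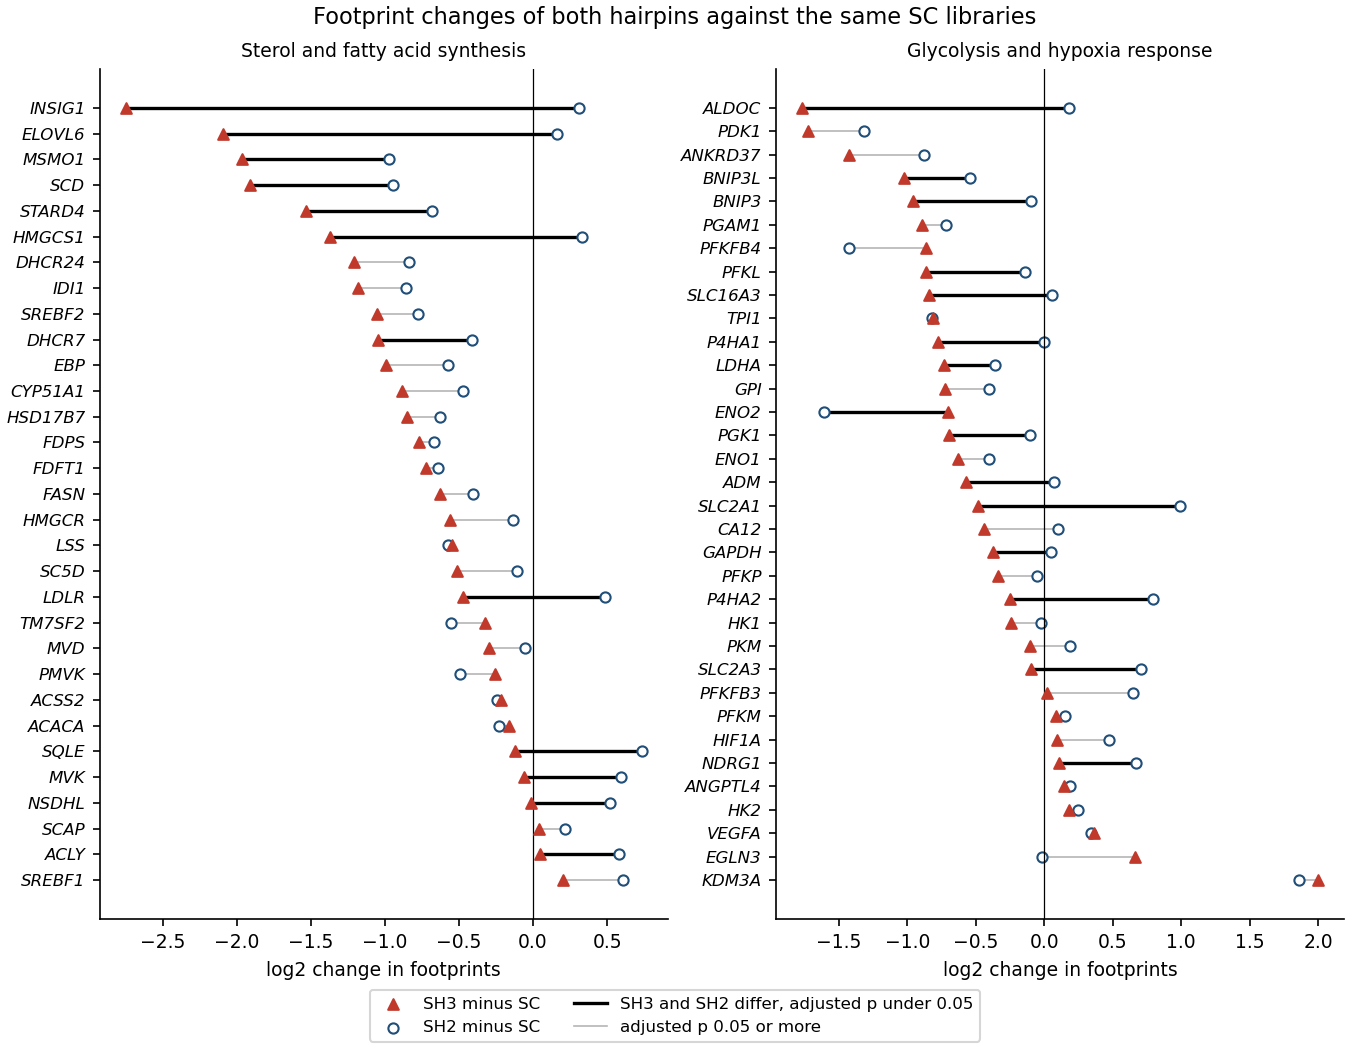
Log2 footprint changes of tested genes of the sterol and fatty acid list (left, 31 of 32 genes) and the glycolysis and hypoxia list (right, 34 genes), SH3 as triangles and SH2 as open circles, both against the same SC libraries. Dark lines join the 12 and 14 genes shown in which SH3 was lower in the direct contrast, and ENO2 in the right panel, in which it was higher; most triangles lie left of their circle.

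Nuclear-encoded subunits of the respiratory chain fell in 31 of 73 tested (42.5%) and rose in 5, with a median of -0.37 and summed footprints of 14021, 13890.1 and 14056 CPM in SC and 11498, 11403 and 11240.2 CPM in SH3. The complex I subunit NDUFC2 changed by -2.09, the ATP synthase subunit ATP5F1E by -1.16, the complex III subunit UQCRB by -1.0, the complex IV subunit COX6C by -0.94 and cytochrome c (CYCS) by -0.81. UQCRB had 436, 400.2 and 368 CPM in SC and 220.1, 193 and 188 CPM in SH3, a log2 change of -1.0 ± 0.14 (SE, edgeR adjusted p = 5.64e-05). The count of 5 higher was 2 without SC replicate 2 or SH3 replicate 2. The 13 mitochondrially encoded mRNAs, which are read by mitochondrial ribosomes, summed to 6535, 4352 and 1709.8 CPM in SC and 3578, 3343 and 2245 CPM in SH3. The SC libraries spread widely on this sum and overlapped SH3. Of these, MT-ND3, MT-CO3, MT-ATP6 and MT-ND6 passed the test as lower, but the count of 4 was 1 without SC replicate 1 or SH3 replicate 2, 11 without SC replicate 3, 2 without SH3 replicate 1 and 0 without SH3 replicate 3, and DESeq2's Wald test called 0. All 13 had a footprint change below 0, with a median of -0.64. RNA of all 13 was lower in SH3 with a call, with a median of -1.17. In SH2 against the same SC libraries footprints of all 13 fell, with a median of -1.76. The direct contrast had 9 of them above SH2, or 1 without SH2 replicate 1, beside 11.6% of all tested genes. Mitochondrial ribosomal proteins were lower in 12 of 74 (6 without SH3 replicate 3) and higher in 2 (5 without SC replicate 1 and 1 without SC replicate 3 or SH3 replicate 3). These are 16.2% and 2.70%, beside 19.0% lower and 16.9% higher among all tested genes.

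Several smaller families fell in a large share of their tested members, beside 19.0% lower and 16.9% higher among all tested genes. Tubulins were lower in 8 of 13 (61.5%) and higher in 0. TUBB6 had 205, 219 and 237 CPM in SC and 60.9, 68.1 and 66.6 CPM in SH3, a log2 change of -1.75 ± 0.14 (SE, edgeR adjusted p = 7.32e-07), and the widely used chains TUBB and TUBA1A changed by -0.82 and -1.30. S100 calcium-binding proteins were lower in 6 of 10 and higher in 0 (1 without SC replicate 1), with S100A6 at 7230.0, 10222 and 7177 CPM in SC and 4495, 4233 and 5015 CPM in SH3, a log2 change of -0.84 ± 0.15 (SE, edgeR adjusted p = 4.33e-04). S100A10 changed by -0.90 and S100A3 by -1.18. Metallothioneins and other genes of the zinc response were lower in 4 of 7, among them MT1E (-2.34) and MT2A (-1.09), and the count was 2 without SC replicate 2 or without SH3 replicate 3. Secreted peptide hormones were lower in 5 of 10, namely KISS1, the neuropeptide NMU (-2.64), the vasoconstrictor precursor EDN1 (-2.16), INHBA and ADM, and the count was 3 without SC replicate 2, SH3 replicate 2 or SH3 replicate 3. INHBA was not called without SC replicate 2 (log2 change -0.84, edgeR adjusted p = 0.109), SH3 replicate 2 (0.128) or SH3 replicate 3 (0.0859). HOXB9, the 1 tested gene of the HOXB cluster, had 18.5, 11.4 and 15.3 CPM in SC and 2.93, 2.40 and 2.80 CPM in SH3, a log2 change of -2.51 ± 0.37 (SE, edgeR adjusted p = 1.05e-04).

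**Figure D4:**
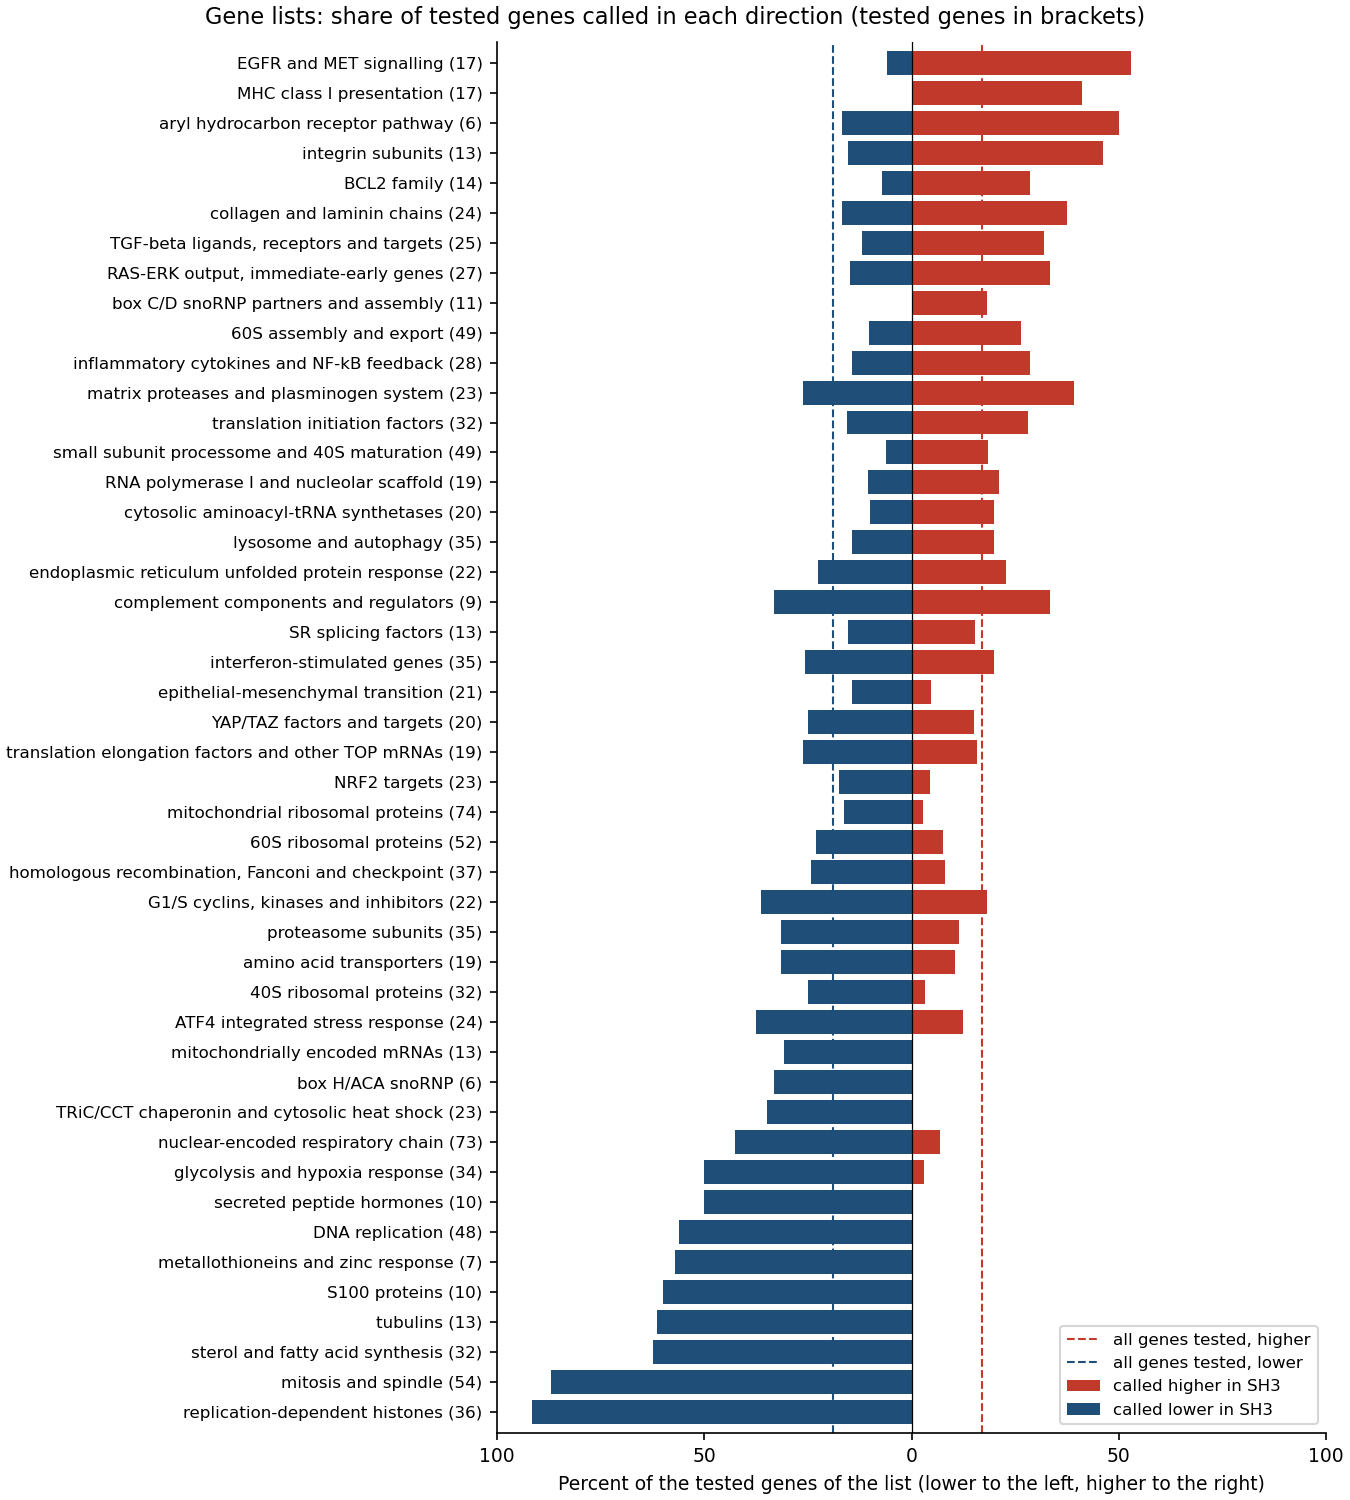
Share of the tested genes of each list shown that was called lower (bars to the left) or higher (bars to the right) in SH3, in percent, with the number tested in brackets; dashed lines mark 19.0% lower and 16.9% higher among all tested genes. Histones, mitosis, sterol synthesis and tubulins reach farthest left, and EGFR and MET signalling, integrins and class I presentation farthest right among lists of 10 or more genes.

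MHC class I presentation, which displays peptides from inside the cell, had 7 of 17 genes higher (41.2%) and 0 lower, with a median of 0.45. Among all tested genes 16.9% were higher and 19.0% lower. Summed footprints were 3054, 3392 and 3383 CPM in SC and 5081, 4735 and 4735 CPM in SH3, without overlap. Beside HLA-B, HLA-C had 99.0, 83.8 and 74.7 CPM in SC and 207, 177 and 192 CPM in SH3, a log2 change of 1.16 ± 0.15 (SE, edgeR adjusted p = 3.85e-05). The immunoproteasome subunit PSMB10 changed by 1.01 and the peptide-trimming protease ERAP1 by 0.95. HLA-F changed by 2.26 from counts of 5, 1 and 6 in SC. Class I genes resemble each other closely, so reads may be shared among them. In SH2 against the same SC libraries 11 of the 17 genes were higher, with a median of 1.03. The direct contrast had 3 of them lower in SH3 than in SH2 and 1 higher, beside 12.1% lower and 11.6% higher among all tested genes. Signalling by EGFR and MET, receptor kinases of epithelial growth, had 9 of 17 higher (52.9%) and 1 lower, ERRFI1, a feedback inhibitor that was not called without SH3 replicate 3 (log2 change -0.40, edgeR adjusted p = 0.0832). EGFR had 166, 214 and 171 CPM in SC and 554, 518 and 461 CPM in SH3, a log2 change of 1.48 ± 0.17 (SE, edgeR adjusted p = 1.54e-05). The EGFR ligands AREG and HBEGF changed by 1.13 and 0.82, and MET by 0.89. In the direct contrast 4 of the 17 genes were above SH2, and 2 were below it (11.8%, near the 12.1% of all tested genes). The list median in SH2 against the same SC libraries was 0.18, beside 0.47 in SH3. SH3 minus SH2 was -0.80 ± 0.17 (SE, edgeR adjusted p = 0.00277) for EGFR, and for AREG it was -1.54 ± 0.22 (SE, edgeR adjusted p = 1.35e-04). For MET it was 0.70 ± 0.21 (SE, edgeR adjusted p = 0.0243), a call lost without SH2 replicate 1, SH2 replicate 3, SH3 replicate 1 or SH3 replicate 2 (highest adjusted p from edgeR 0.126).

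Collagen and laminin chains were higher in 9 of 24 (37.5%) and lower in 4, with a median of 0.60 and summed footprints of 1727, 3015 and 2252 CPM in SC and 4524, 3925 and 3534 CPM in SH3, without overlap. COL6A1 had 79.7, 102 and 78.6 CPM in SC and 279, 343 and 365 CPM in SH3, a log2 change of 1.93 ± 0.15 (SE, edgeR adjusted p = 6.57e-07), COL5A1 changed by 1.56 and COL7A1 by 1.43. LAMB1 (-1.18), COL4A1 (-1.13), COL12A1 and COL8A1 fell. Among all tested genes 16.9% were higher and 19.0% lower. Integrin subunits were higher in 6 of 13 (46.2%) and lower in 2, ITGAE (-1.46) and ITGB5. In SH2 against the same SC libraries 9 were higher and 1 lower, with a median of 1.41, beside 0.21 in SH3. The direct contrast had 4 integrin genes lower in SH3 than in SH2 (30.8%) and 0 higher, beside 12.1% lower and 11.6% higher among all tested genes. After ITGA10 came ITGA1, at 27.6, 32.0 and 25.4 CPM in SC and 70.8, 61.6 and 82.4 CPM in SH3, a log2 change of 1.35 ± 0.20 (SE, edgeR adjusted p = 9.59e-05), and the fibronectin receptor chain ITGA5 (1.14). Their common partner ITGB1 had 1231, 2672 and 1596 CPM in SC and 2524, 1990.0 and 1864 CPM in SH3, a log2 change of 0.21 that did not pass (edgeR adjusted p = 0.484) and that was 0.59 (adjusted p = 0.0146) without SC replicate 2. Matrix proteases and the plasminogen system split, with 9 of 23 higher, led by MMP16 (1.51), and 6 lower, led by MMP1. The 6 were 3 without SH3 replicate 2. SH3 was below SH2 in 9 of these 23 genes (39.1%, beside 12.1% of all tested genes) and above in 3. MMP1 was among the 9, at -3.03 ± 0.52 (SE, edgeR adjusted p = 6.17e-04).

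In the BCL2 family, which sets the threshold of mitochondrial apoptosis, 4 of 14 genes rose (28.6%): BMF, BCL2L11 (BIM), BBC3 (PUMA) and BCL2L2. The median of the list was -0.02. Among all tested genes 16.9% rose and 19.0% fell. BCL2L11 had 2.11, 1.69 and 0.533 CPM in SC and 8.2, 5.48 and 7.36 CPM in SH3, a log2 change of 2.26 ± 0.42 (SE, edgeR adjusted p = 7.26e-04), from counts of 13, 4 and 3 in SC. BCL2L2 was not called without SC replicate 3, SH3 replicate 2 or SH3 replicate 3 (adjusted p from edgeR 0.0596, 0.0743 and 0.125), and with libraries thinned to the depth of the shallowest the count of 4 was 1. The 1 fallen member, BAX, changed by -0.38 and lost its call in 8 of 14 alternatives, among them every one that leaves out a library other than SC replicate 1. In the ATF4 integrated stress response, 3 of 24 rose (12.5%, below the 16.9% of all tested genes) and 9 fell (37.5%). The 3 were DDIT3 (a transcription factor linked to cell death, 1.81), SESN2 (1.54) and PPP1R15A (1.51), which encodes a phosphatase subunit that reverses the response. The fallen ones were led by the cystine transporter SLC7A11, at 60.6, 70.8 and 85.6 CPM in SC and 21.1, 20.2 and 19.3 CPM in SH3, a log2 change of -1.84 ± 0.18 (SE, edgeR adjusted p = 3.33e-06), and include the serine synthesis enzymes PSAT1 (-1.37) and PHGDH (-1.08). ATF4 itself changed by -0.25 and did not pass (edgeR adjusted p = 0.234).

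Among inflammatory cytokines and feedback genes of NF-kB, 8 of 28 rose and 4 fell. CSF1, which supports macrophages, had 105, 83.0 and 80.2 CPM in SC and 424, 296 and 356 CPM in SH3, a log2 change of 2.00 ± 0.19 (SE, edgeR adjusted p = 3.12e-06). The subunits of the alternative NF-kB pathway NFKB2 and RELB changed by 1.39 and 1.42, and the inhibitor of apoptosis BIRC3 by 1.85. The 4 that fell were IL11 (-2.45), IL1B (-1.31), CSF2 and TNFAIP2, and the count was 2 without SC replicate 1 or without SH3 replicate 2. IL1B had 21.1, 24.9 and 14 CPM in SC and 10.5, 6.51 and 7.36 CPM in SH3, and 80.7, 67.1 and 56.0 CPM in SH2. It was thus lower than SC in SH3 and higher than SC in SH2 (1.80), and the direct difference was -3.10 ± 0.26 (SE, edgeR adjusted p = 1.59e-06). Interferon-stimulated genes divided, with 7 of 35 higher (20.0%) and 9 lower (25.7%), beside 16.9% and 19.0% among all tested genes. GBP2, a guanylate-binding protein, had 18.2, 12.6 and 11 CPM in SC and 62.6, 47.9 and 63.8 CPM in SH3, a log2 change of 2.03 ± 0.24 (SE, edgeR adjusted p = 1.84e-05), and the factor IRF1 changed by 1.5. HERC5, the ligase of the ubiquitin-like ISG15, had 98.1, 80.5 and 92.1 CPM in SC and 31.0, 16.4 and 31.6 CPM in SH3, a log2 change of -1.80 ± 0.20 (SE, edgeR adjusted p = 1.20e-05). ISG15 changed by -1.20 and IFIT1 by -1.47.

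Ribosomal proteins had small footprint changes. Proteins of the small subunit were higher in 1 of 32 and lower in 8 (25.0%), with a median of -0.13. Those of the large subunit were higher in 4 of 52 and lower in 12 (23.1%), with a median of -0.05 whose sign changed under some alternatives. Among all tested genes 19.0% were lower and 16.9% higher. The lower shares of both lists were thus near that of all genes, and their higher shares (3.12% and 7.69%) were below it. Summed footprints of the large-subunit list were 47699.5, 44085 and 45910.5 CPM in SC and 44150.0, 49582 and 44174 CPM in SH3 and overlapped. RPL19 had 962, 1006 and 978 CPM in SC and 1942, 2523 and 1630.1 CPM in SH3, a log2 change of 1.05 ± 0.16 (SE, edgeR adjusted p = 1.56e-04). RPS12 changed by -0.72 and RPS28 by -0.71. The steepest falls were those of RPL36A (-1.65) and of RPL39L (-1.63), a low-level relative of an abundant ribosomal gene. RPL36A was not called without SH3 replicate 2 (log2 change -1.43, edgeR adjusted p = 0.0550). These counts depend on single libraries. For the small subunit the 8 was 5 without SH3 replicate 1 or SH3 replicate 2 and 4 without SH3 replicate 3, and the 1, RPS14, was 2 without SC replicate 1 or SH3 replicate 3 and 0 without SC replicate 3 or SH3 replicate 2. For the large subunit the 12 was 7 without SC replicate 1, 5 without SH3 replicate 2 and 6 without SH3 replicate 3, and the 4 was 2 without SC replicate 3 or SH3 replicate 3 and 1 without SH3 replicate 2.

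In RNA most of the same genes were lower. RNA of 30 of these 32 small-subunit genes and 45 of these 52 large-subunit genes fell, with medians of -0.63 and -0.55, beside 25.2% lower, 27.8% higher and 53% called in either direction among all 12710 genes tested in RNA. Footprint and RNA changes were compared gene by gene in 1 fit over all 18 libraries, and the footprint change exceeded the RNA change in 7 small-subunit and 12 large-subunit genes and fell short of it in 0, beside 0.375% and 0.311% of all 12531 genes tested. Those counts depend on the tool and on single libraries. DESeq2's Wald test gave 11 and 26. Without SH3 footprint replicate 2 they were 1 and 3, while the 7 was 3 without SC footprint replicate 2 and 4 without SC footprint replicate 3 or SH3 footprint replicate 3, and the 12 was 20 without SC footprint replicate 1. Among RNA libraries, the 7 was 3 without SC replicate 3 or any SH3 replicate, and the 12 was 6 without SC replicate 3 or SH3 replicate 3 and 7 without SH3 replicate 1. CPM is a share of its library, so these are changes relative to the other mRNAs of the same kind of library.

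**Figure D5:**
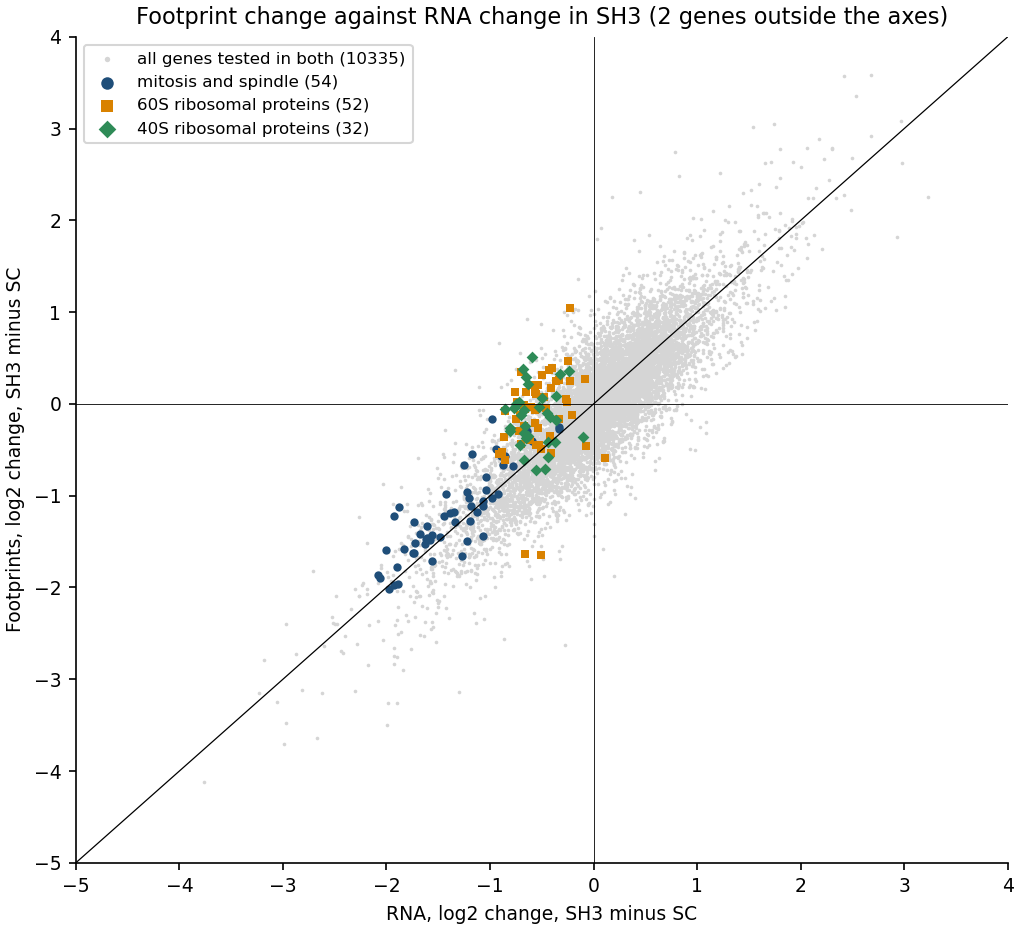
Log2 change in footprints (vertical) against log2 change in RNA (horizontal), SH3 minus SC, for 10335 genes tested in both, with the line of equal change; 2 genes lie outside the axes. The 54 mitosis genes lie along the line at the lower left, while most ribosomal proteins lie left of 0 and above the line.

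Of 11 partners and assembly factors of the box C/D particle, 2 rose and 0 fell. NOP56, which sits beside fibrillarin in the particle, had 229, 171 and 172 CPM in SC and 421, 506 and 488 CPM in SH3, a log2 change of 1.30 ± 0.14 (SE, edgeR adjusted p = 9.83e-06), and NOLC1, a nucleolar chaperone, changed by 0.67. NOP58, the other core partner, had 160.1, 151 and 145 CPM in SC and 135, 158 and 141 CPM in SH3, a log2 change of -0.07 that did not pass (edgeR adjusted p = 0.718). The NOP56 groups were apart and the NOP58 groups overlapped. Box H/ACA proteins, which carry out pseudouridylation, had 0 of 6 higher and 2 lower, NAF1 (-0.84) and NOP10, with 1 lower without SH3 replicate 2. The small-subunit processome had 9 of 49 higher (18.4%) and 3 lower (6.12%), led by UTP3 (1.06) and WDR36 (-0.62). Among all tested genes 16.9% were higher and 19.0% lower. The 9 was 4 without SC replicate 3 and 3 without SH3 replicate 2, and the 3 was 1 without SH3 replicate 1. Factors of large-subunit assembly and export had 13 of 49 higher (26.5%), or 8 without SH3 replicate 2, and 5 lower, from NOP53 at 1.00 to MAK16 at -1.08. Among subunits of RNA polymerase I and its nucleolar partners, POLR1A (0.85), TAF1C, POLR1D and TCOF1 rose and POLR1F (-1.25) and MKI67 fell. The count of 4 was 1 without SC replicate 2 or SH3 replicate 3 and 2 without SH3 replicate 1 or SH3 replicate 2, and that of 2 was 4 without SC replicate 2 and 1 without SH3 replicate 2.

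Translation initiation factors were higher in 9 of 32 (28.1%) and lower in 5. EIF5, the GTPase activator of start codon choice, had 267, 188 and 198 CPM in SC and 506, 569.7 and 476 CPM in SH3, a log2 change of 1.25 ± 0.15 (SE, edgeR adjusted p = 2.26e-05). EIF5B, which joins the subunits, changed by 0.86 and EIF4EBP2, a repressor of cap binding, by 1.10. The 5 lower calls, EIF4A2, EIF1AX, EIF4H, EIF3B and EIF4E, were 2 without SC replicate 1, SC replicate 3 or SH3 replicate 3 and 1 without SH3 replicate 1 or SH3 replicate 2. Elongation factors and other mRNAs with a terminal oligopyrimidine tract were higher in 3 of 19 (EIF4B, EIF3H and EIF3L) and lower in 5 (EEF1D at -0.53, COX4I1, EEF1B2, PABPC1 and NACA). The 3 was 1 without SC replicate 3 or SH3 replicate 1, and the 5 was 3 without SC replicate 3 and 2 without SH3 replicate 2 or SH3 replicate 3. Elongation factor EEF2 had 1539, 1676 and 1599 CPM in SC and 1538, 1858 and 1781 CPM in SH3, which overlapped and did not pass (log2 change 0.11, edgeR adjusted p = 0.544). Cytosolic aminoacyl-tRNA synthetases had 4 of 20 higher (2 without SC replicate 1, SC replicate 3 or SH3 replicate 3 and 1 without SH3 replicate 2), with LARS1 at 0.57, and 2 lower (4 without SC replicate 1 and 1 without SC replicate 2, SC replicate 3, SH3 replicate 1, SH3 replicate 2 or SH3 replicate 3), with YARS1 at -0.70. Those counts are 20.0% and 10.0%, beside 16.9% and 19.0% among all tested genes.

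Single genes differed more widely between the hairpins. In the direct contrast 2459 of 10345 genes (23.8%) were called, and 1078 of them were also called in SH3 against SC. SLC25A24 stood at 250.3, 286 and 239 CPM in SH2, close to its SC level, and the difference SH3 minus SH2 was -3.99 ± 0.17 (SE, edgeR adjusted p = 3.30e-10). TMEM30A stood at 259, 325 and 264 CPM in SH2, above SC, with a difference of -3.90 ± 0.16 (SE, edgeR adjusted p = 3.30e-10). GPR180 differed by -3.71 ± 0.37 (SE, edgeR adjusted p = 6.37e-06), and the decoy receptor gene TNFRSF11B by -3.12 ± 0.33 (SE, edgeR adjusted p = 1.12e-05). All 4 fell in SH3, while their log2 changes in SH2 against SC were 0.29, 0.75, 0.45 and 0.75. PRSS2, a trypsinogen, stood at 15.3, 24 and 13.7 CPM in SC and 26.9, 31.2 and 30.8 CPM in SH3 and at 506, 313 and 454 CPM in SH2, with a difference of -3.83 ± 0.22 (SE, edgeR adjusted p = 2.38e-08); close paralogues may share its reads. In the other direction, DDAH1, which degrades methylated arginine, had 159.9, 149 and 147 CPM in SC and 114, 79.4 and 85.5 CPM in SH3 and 8.89, 6.76 and 12.3 CPM in SH2, a difference of 3.33 ± 0.21 (SE, edgeR adjusted p = 8.25e-08). PAIP2, an inhibitor of poly(A)-binding protein, differed by 2.57 ± 0.18 (SE, edgeR adjusted p = 2.73e-07), CC2D1A by 2.49 ± 0.17 (SE, edgeR adjusted p = 1.65e-07), TEF by 2.46 ± 0.38 (SE, edgeR adjusted p = 2.82e-04) and PNRC2 by 2.29 ± 0.22 (SE, edgeR adjusted p = 6.20e-06). The smaller changes of 3 of these against SC depended on single libraries: PAIP2 was not called without SC replicate 3 (adjusted p from edgeR 0.0711) or SH3 replicate 1 (0.0871), PRSS2 without SC replicate 3 (0.0657), and TEF without SC replicate 1 (0.0616), SC replicate 2 (0.0615), SH3 replicate 2 (0.107) or SH3 replicate 3 (0.126).

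Few single genes were called as differing between footprint change and RNA change. Of 3716 genes called in footprints and also tested in RNA, 3090 were called in RNA in the same direction and 14 in the opposite one. The difference between the changes was called in 86 of 12531 genes (0.686%), and in 18 without SH3 footprint replicate 2. DESeq2's Wald test called 349, so the count depends on the tool. A gene that was not called may still differ between footprints and RNA. RPL19 RNA stood at 1364, 1272 and 1479 CPM in SC and 1035, 1295 and 1172 CPM in SH3, while its footprints rose, a difference of 1.30 ± 0.20 (SE, edgeR adjusted p = 0.00274). EIF4B RNA fell, from 585, 508 and 591 CPM to 331, 359 and 336 CPM, while its footprints rose, a difference of 1.28 ± 0.15 (SE, edgeR adjusted p = 3.02e-04). DNAH14, a dynein heavy chain, had RNA of 34.4, 36.8 and 35.4 CPM in SC and 39.9, 41.7 and 40.2 CPM in SH3 and footprints of 21.8, 23.6 and 22.0 CPM in SC and 7.61, 6.51 and 4.56 CPM in SH3, a difference of -2.06 ± 0.25 (SE, edgeR adjusted p = 3.02e-04). DUS1L, a dihydrouridine synthase, had higher RNA (132, 79.2 and 102 CPM in SC and 197, 221 and 199.6 CPM in SH3) and footprints of 19.5, 21.1 and 19.4 CPM in SC and 12.3, 13.7 and 15.8 CPM in SH3, a difference of -1.46 ± 0.24 (SE, edgeR adjusted p = 0.00508). In DNAH14 and DUS1L the SH3 libraries lay above SC in RNA and below SC in footprints, although the DUS1L footprint change alone did not pass (edgeR adjusted p = 0.0577; with replicate numbers as a block it was 0.0490).

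Unfolded protein response genes were higher in 5 of 22, led by the sensor ERN1 at 12.5, 21.1 and 14 CPM in SC and 50.9, 56.5 and 47.3 CPM in SH3, a log2 change of 1.76 ± 0.20 (SE, edgeR adjusted p = 1.15e-05), and lower in 5, led by EDEM1 (-1.19). The 5 higher was 10 without SC replicate 2 and 3 without SH3 replicate 1, and the 5 lower was 2 without SC replicate 2 or SH3 replicate 3 and 3 without SC replicate 3 or SH3 replicate 2. Lysosome and autophagy genes were higher in 7 of 35 (15 without SC replicate 2 and 4 without SH3 replicate 1), with CTSD at 0.86, and lower in 5 (3 without SC replicate 3), led by the autophagy gene BECN1, at 58.9, 62.3 and 55.6 CPM in SC and 12.9, 19.5 and 16.1 CPM in SH3, a log2 change of -1.83 ± 0.19 (SE, edgeR adjusted p = 5.95e-06). For the unfolded protein response the shares are 22.7% in each direction, and for the lysosome list 20.0% higher and 14.3% lower. Among all tested genes 16.9% were higher and 19.0% lower. Proteasome subunits were lower in 11 of 35 (7 without SH3 replicate 3) and higher in 4 (2 without SC replicate 3 and 1 without SH3 replicate 2 or SH3 replicate 3). Chaperonin and heat shock genes were lower in 8 of 23 (5 without SH3 replicate 2 or SH3 replicate 3) and higher in 0. Amino acid transporters were lower in 6 of 19, with SLC7A5 at -1.36, and higher in 2 (1 without SC replicate 1, SC replicate 3 or SH3 replicate 1). 

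TGF-beta pathway genes were higher in 8 of 25 (32.0%), with the inhibitor SMAD7 at 1.98, SMAD3 at 1.10 and the receptor TGFBR2 at 0.74, and lower in 3 (1 without SC replicate 2, SC replicate 3 or SH3 replicate 3 and 0 without SH3 replicate 2). Genes of RAS-ERK output were higher in 9 of 27 (5 without SH3 replicate 2), led by the phosphatase DUSP5 (1.69), and lower in 4 (1 without SC replicate 3 or SH3 replicate 2), led by DUSP1 (-1.11). Complement genes were higher in 3 of 9 (C3 and CLU, at 1.91, among them) and lower in 3 (PTX3 at -1.49, CD55 and C1QBP). The aryl hydrocarbon receptor list had CYP1B1, CYP1A1 (1.89) and AHR higher and NQO1 (-1.15) lower among 6; AHR was not called without SC replicate 2 (edgeR adjusted p = 0.061), SC replicate 3 (0.0588), SH3 replicate 2 (0.0925) or SH3 replicate 3 (0.117). YAP and TAZ factors and targets were higher in 3 of 20, with LATS2 at 0.96, and lower in 5 (8 without SC replicate 1), with TEAD1 at -0.88. NRF2 targets were higher in 1 of 23 (ABCC3; 2 without SC replicate 1 or SC replicate 2) and lower in 4. Epithelial-mesenchymal genes were higher in 1 of 21 (ZEB2; 3 without SC replicate 2 or SH3 replicate 1 and 0 without SC replicate 3 or SH3 replicate 2) and lower in 3 (1 without SH3 replicate 2). SR splicing factors were higher in 2 of 13, SRSF4 (1.61) and SRSF8, and lower in 2 (1 without SC replicate 1 and 0 without SH3 replicate 1). The counts of these lists stand beside 16.9% higher and 19.0% lower among all tested genes.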

How the data were processed

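The 6 footprint libraries of SC and SH3 were taken from a table of 17017 genes and 18 libraries deposited by the authors, with the SH2 footprint and the RNA libraries for comparison. Its count columns, raw whole-number reads per gene, were used as deposited by the authors. Bowtie 1.2.2 and DESeq2 are named in the submitters' processing notes; how reads were counted, the annotation and the genome build are not given in the sources used here. The authors' fold change and p columns and 18 normalized columns were not used.

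Counts were fitted with edgeR 4.0.16 (R 4.3.3): TMM factors, filterByExpr (minimum count 10, 10345 genes), and a quasi-likelihood test with treatment as the only term over all 9 footprint libraries, which share 1 estimate of spread. The common biological coefficient of variation was 15.1%. The SE is the log2 change divided by the root of F. The Benjamini-Hochberg adjusted p covers all genes tested, and a gene was called under 0.05. SH3 was contrasted with SH2 in the same fit, RNA was fitted over 9 libraries (12710 genes), and footprint and RNA changes were compared by an interaction term over 18 (12531 genes). On data simulated from these libraries, the footprint test recovered 159 of 200 genes changed 2-fold (79.5%) with 6 false calls among 10207 genes. The simulation gave every gene the same spread and changed only those 200. It therefore gives no error rate for the calls in the data.

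The genes named are FBL, the 10 highest and 10 lowest log2 changes among called genes with at least 10 CPM and SH3 values outside the SC range, 5 and 5 among those of at least 200 CPM, the highest rise and deepest fall of each of 48 gene lists, and the 5 and 5 most extreme differences from SH2 and from RNA. That rule gives 113 genes. Of the 210 genes followed, the others are list members chosen after their values were seen, and the gene lists and the comparison itself were chosen with earlier results of these data known; a few of these genes and 1 list are not reported here. Levels are not compared between genes, since CPM is not per length, and the 200 CPM limit favours long coding sequences. Depth was 1662705 to 6098648 counts. No molecular identifiers are described, so replicate spread is the error given. Alternatives were other scalings, filters, thresholds, tools, thinning to 1 depth, a replicate block, and leaving out each library. Promoters are from RefSeq (GRCh38.p14).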

Additional observations from a re-analysis of the deposited data

Results flagged for a closer look

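For 13 named genes the footprint change in SH3 differed from the RNA change by the test of that difference, an interaction term in edgeR over 18 libraries. Each value below is the footprint log2 change minus the RNA log2 change.

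In 7 of them the footprint change lay above the RNA change. EIF4B stood at 1.28 ± 0.15 (SE, edgeR adjusted p = 3.02e-04), from a footprint log2 change of 0.55 and an RNA log2 change of -0.71. RPL19 stood at 1.30 ± 0.20 (SE, edgeR adjusted p = 0.00274), from a footprint log2 change of 1.05 and an RNA log2 change of -0.23. NOP53, a large-subunit assembly factor, stood at 1.30 ± 0.22 (SE, edgeR adjusted p = 0.00508), from a footprint log2 change of 1.00 and an RNA log2 change of -0.29. NOP56 stood at 0.93 ± 0.17 (SE, edgeR adjusted p = 0.0122), from a footprint log2 change of 1.30 and an RNA log2 change of 0.38, and was not called without SH3 footprint replicate 2 (0.86, edgeR adjusted p = 0.0610). UCP2, a mitochondrial carrier, stood at 1.59 ± 0.25 (SE, edgeR adjusted p = 0.00297), from a footprint log2 change of 0.67 and an RNA log2 change of -0.91. Its footprint change alone (edgeR adjusted p = 0.0372) lost its call in 7 of 14 alternatives, among them every one that leaves out a library other than SC replicate 1, and was 1.26 with libraries thinned to 1 depth. BCL2L11 stood at 2.11 ± 0.44 (SE, edgeR adjusted p = 0.0236), from a footprint log2 change of 2.26 and an RNA log2 change of 0.17, with few reads in SC, and lost its call in 7 of 15 alternatives. UBN2, a histone chaperone subunit, stood at 1.23 ± 0.28 (SE, edgeR adjusted p = 0.0404), from a footprint log2 change of 1.67 and an RNA log2 change of 0.44, and lost its call in 10 of 16. In EIF4B, RPL19, NOP53 and UCP2 the changes had opposite signs.

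In the others the footprint change lay below the RNA change. DNAH14 stood at -2.06 ± 0.25 (SE, edgeR adjusted p = 3.02e-04), from a footprint log2 change of -1.87 and an RNA log2 change of 0.19. DUS1L stood at -1.46 ± 0.24 (SE, edgeR adjusted p = 0.00508), from a footprint log2 change of -0.50 and an RNA log2 change of 0.98. CAPN15 stood at -1.40 ± 0.26 (SE, edgeR adjusted p = 0.0122), from a footprint log2 change of -0.49 and an RNA log2 change of 0.93, and was not called without SH3 footprint replicate 2 (-1.25, edgeR adjusted p = 0.0733). Its footprint change alone did not pass (edgeR adjusted p = 0.110), but passed at -0.74 without SH3 replicate 3 (0.0454) and at -0.52 with replicate numbers as a block (0.0414). GBA2, a glucosylceramidase, stood at -1.47 ± 0.31 (SE, edgeR adjusted p = 0.0311), from a footprint log2 change of -1.20 and an RNA log2 change of 0.30, and lost its call in 7 of 16 alternatives. CCNG2 stood at -1.49 ± 0.35 (SE, edgeR adjusted p = 0.0469), from a footprint log2 change of -3.49 and an RNA log2 change of -2.0, and lost it in 12 of 16. PSMA3, a proteasome subunit, stood at -0.69 ± 0.15 (SE, edgeR adjusted p = 0.0363), from a footprint log2 change of -0.78 and an RNA log2 change of -0.08, and lost it in 9 of 16. In DNAH14, DUS1L, CAPN15 and GBA2 the RNA change was above 0.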

How the results depend on the processing

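Depth limits the low genes: SH3 replicate 1 has the fewest counts, and the median SE is 0.33 in the lowest of 4 level groups and 0.15 in the highest. Of 199 genes followed by name and called in footprints, 168 kept their call and direction under every alternative that gave them a value (at most 14), 31 lost the call under at least 1, and 0 reversed; the cause was not tested. Medians of 8 lists changed sign under some alternative, among them large-subunit ribosomal proteins, BCL2 family, NRF2 targets, RNA polymerase I, box H/ACA, lysosome and TOP mRNAs. No protein lengths were at hand, so the planned split by coding length was not run.

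With an adjusted p under 0.01, 2304 genes were called in footprints (1045 higher and 1259 lower), and with an absolute log2 change of at least 1, 1356 (536 and 820); both are stricter by construction. DESeq2's Wald test gave 3544 footprint calls and, for footprint against RNA change, 349 (163 higher and 186 lower, against 47 and 39 in edgeR). Library totals alone gave 3776 footprint calls, of which 55.0% were higher, against 47.1% with TMM factors, and upper-quartile factors 3777, of which 50.0% were higher. Thinning to the shallowest library gave 3091, no filter 4072 of 14514, and the 6 libraries alone 3456. Leaving out 1 library gave 2645 (SH3 replicate 2) to 3771 (SC replicate 1) footprint calls, 1265 to 1833 higher and 1380 to 1938 lower. For SH3 against SH2 the ranges were 1541 to 2104, 762 to 995 and 779 to 1109, for RNA 5661 to 6415, 2738 to 3262 and 2762 to 3196, and for footprint against RNA change 18 (SH3 footprint replicate 2) to 162 (SC footprint replicate 1), 12 to 97 and 6 to 65.

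The labels do not say whether replicate numbers mark pairs. The deviations of same-numbered SC and SH3 footprint libraries correlated at 0.016, -0.059 and 0.258, and those of libraries with unlike numbers at -0.194 to 0.107. These values do not settle the question, and footprint and RNA libraries of the same number were not compared in this way. The main fits assumed no pairing. With the numbers as a replicate block, 4269 genes were called in footprints (2042 higher and 2227 lower), 3019 for SH3 against SH2, 7396 in RNA and 94 for footprint against RNA change. Without the block these counts were 3719, 2459, 6732 and 86.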

Other observations

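Called genes under 10 CPM in both groups were left out of the leading genes by rule, and 3 of them, picked after their values were seen, had log2 rises as steep as those named. ADAM28, a membrane metalloprotease, had 1, 0 and 2 reads in SC and 6, 14 and 11 in SH3, a log2 change of 4.08 ± 0.67 (SE, edgeR adjusted p = 2.91e-04). ARHGAP25, a GTPase activator for RAC, had 3, 0 and 1 reads in SC and 6, 13 and 9 in SH3, a log2 change of 3.58 ± 0.62 (SE, edgeR adjusted p = 4.12e-04). LGR6, a receptor for R-spondins, had 2, 1 and 1 reads in SC and 6, 12 and 6 in SH3, a log2 change of 3.35 ± 0.76 (SE, edgeR adjusted p = 0.00295). In each of them SH3 counts were above SC counts although SC libraries were deeper on average, and the few SC reads leave the size of the change loosely fixed.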
